A study of Homo sapiens with 9 samples.

Results

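The aminoacyl-tRNA synthetase genes were taken as the protein-coding genes of the count table whose description contains the words tRNA synthetase. There were 41 of them among 19951 protein-coding genes and 58735 genes in all. By description or by a symbol ending in 2, 19 were classed as mitochondrial and the other 22 as cytosolic. The split is one of names: AIMP2, a scaffold protein of the cytosolic synthetase complex, and TARSL2, a threonyl-type enzyme of the cytosol, fell among the 19 by symbol alone, and GARS and KARS, counted as cytosolic, each serve both compartments. The 41 also held AIMP1, another scaffold protein, and AARSD1, which carries an editing domain related to that of alanyl-tRNA synthetase. All 41 passed the filter on low counts that left 15555 genes for testing.

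The RNA came from VCaP, an established human prostate cancer cell line of wild-type genotype per the labels, grown in all groups in serum-containing medium with 2 nM of the androgen DHT. Cells received a control siRNA (siCtrl) or 1 of 2 siRNAs against CDO1 (siCDO1A and siCDO1C), with 3 biological replicates per group and 9 libraries in all. CDO1 is the cytosolic dioxygenase that oxidises cysteine. The study compared each siRNA with siCtrl to see which transcripts moved when CDO1 was lowered in these cells.

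Each aminoacyl-tRNA synthetase joins 1 amino acid to its tRNAs before the ribosome uses them, and most amino acids have a cytosolic enzyme and a separate mitochondrial enzyme, all encoded in the nucleus. Several cytosolic enzymes sit in a multi-synthetase complex held together by AIMP1, AIMP2 and EEF1E1. Uncharged tRNA activates the kinase GCN2 (EIF2AK4), which phosphorylates the initiation factor eIF2 and so raises translation of the transcription factor ATF4. ATF4 pairs with C/EBP proteins on a composite DNA element of the form TGATGNAA in amino acid transport, amino acid synthesis and synthetase genes. Mitochondrial synthetases are not known as a group for this control. A list of 13 cytosolic synthetases described as ATF4-responsive (AARS, CARS, EPRS, GARS, IARS, LARS, MARS, NARS, SARS, TARS, VARS, WARS and YARS) was set against the other cytosolic genes and the mitochondrial ones. The list was written from general knowledge with earlier results of these data known, so its counts describe the data and are not a test.

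The composite element was looked for because ATF4 and C/EBP proteins pair on it, as given above. Promoter sequences of RefSeq (GRCh38.p14), from 250 bases before to 50 bases after each listed transcription start, were matched for 33 of the 41 genes. The 8 letters TGATGNAA, read on either strand and searched with no other motif, were present at a listed start in 7 of the 10 matched genes of the ATF4-responsive list, in 0 of the 8 other cytosolic genes and in 1 of the 15 mitochondrial ones. Of all 27305 genes with a promoter sequence, 4.46% held them. Among 28 matched ATF4 targets that are not synthetases, 9 did. The 8 windows below, 30 bases each and written 5′ to 3′ on the strand of the gene, carry the match in capitals, where TTNCATCA is the same element on the opposite strand.
NARS: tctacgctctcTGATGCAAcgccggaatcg
AARS: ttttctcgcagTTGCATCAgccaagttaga
GARS: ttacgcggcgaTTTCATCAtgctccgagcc
MARS: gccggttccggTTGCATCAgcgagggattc
IARS: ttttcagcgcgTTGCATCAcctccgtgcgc
TARS: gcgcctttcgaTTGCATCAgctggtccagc
CARS: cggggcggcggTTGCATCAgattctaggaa
YARS2: atccacactgcTGATGGAAaaattaagttt

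These windows lie at chr18:57621804-57621833 on the minus strand for NARS, chr16:70289675-70289704 on the minus strand for AARS, chr7:30594834-30594863 on the plus strand for GARS and chr12:57488053-57488082 on the plus strand for MARS. Those of the other 4 genes lie at chr9:92293692-92293721 on the minus strand for IARS, chr5:33440956-33440985 on the plus strand for TARS, chr11:3057407-3057436 on the minus strand for CARS and chr12:32756076-32756105 on the minus strand for YARS2. In CARS, TARS, MARS, IARS and NARS the first matched base was within 15 bases of the start, in GARS it was 33 bases before its second listed start, and in AARS and YARS2 it was 187 and 197 bases before the start. The core TTGCATCA, or TGATGCAA on the other strand, was shared by 6 of the 7 cytosolic genes with a match. A match of letters describes the sequence and does not show that a factor binds there. In the ATF4-responsive list, EPRS, SARS and WARS had a matched promoter without these letters. Genes with no matched promoter included VARS, AARS2, DARS, LARS, YARS, VARS2 and TARSL2.

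Between 12061295 and 16073698 counts were assigned per library, and the 3 groups overlapped in depth. CDO1 was at 14.2, 14.1 and 13.7 CPM (the count scaled to a common library size after TMM normalization) in siCtrl, at 3.28, 2.05 and 2.18 with siCDO1A and at 1.10, 2.81 and 1.16 with siCDO1C, so that each siRNA library lay below each siCtrl library. All 12 prostate epithelial markers listed were counted, with a summed level of 6910 to 7060 CPM in siCtrl, 7720 to 8110 with siCDO1A and 7270 to 7440 with siCDO1C. Of 14 stromal, endothelial and leukocyte markers, 3 passed the filter, and the summed level of the 14 was 20.5 to 22.9, 22.5 to 24.9 and 17.3 to 19.8 CPM in the same order. COL1A2, CDH5 and HBB are listed at 0 in every library, as is EEF1G, an elongation factor gene that every cell uses, so a listed 0 need not mean that a gene was silent. The part of these differences in the synthetase values was not tested. In bulk RNA, fewer cells of a type and less RNA per cell cannot be told apart.

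Levels of the 41 genes in siCtrl cells, as CPM per kilobase of the gene length in the count table, covered a wide range and were mostly higher for cytosolic genes. NARS, the asparaginyl enzyme, had the highest level per kilobase (49.5 ± 1.05, SD, n = 3), ahead of QARS, the glutaminyl enzyme (44.4 ± 1.66), and FARSA, the catalytic subunit of the phenylalanyl enzyme (44.4 ± 1.14). QARS and FARSA overlapped each other. The lowest were FARS2, the mitochondrial phenylalanyl enzyme (1.32 ± 0.188), SARS2, the mitochondrial seryl enzyme (0.370 ± 0.0439), and AARSD1 (0.259 ± 0.0616). SARS2 had 13 to 47 counts per library and so carries the larger error of low counts. SARS2 and AARSD1 each overlap another protein-coding gene on the same strand, and the part of this in their low levels was not tested.

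For 14 amino acids there was a separate gene for each compartment, which let the enzymes be set side by side. In 11 of these 14 pairs the cytosolic gene had the higher level per kilobase in siCtrl. The ratio reached 92.4 ± 9.47 for SARS over SARS2, where the level of SARS2 has the limits given above. In 3 pairs the mitochondrial gene was the higher one per kilobase. The ratio of cytosolic to mitochondrial level was 0.118 ± 0.00225 for CARS and CARS2, 0.519 ± 0.0166 for IARS and IARS2 and 0.55 ± 0.00948 for HARS and HARS2. The last rests on the gene lengths of the count table, 7853 bases for HARS and 3736 for HARS2. In CPM, HARS was the higher (mean of 38.7 against 33.5 in siCtrl), whereas CARS2 and IARS2 were the higher in CPM too. Cysteinyl-tRNA synthetases, which use the amino acid that CDO1 oxidises, thus had the lowest such ratio of the 14 pairs in these cells.

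**Figure D1:**
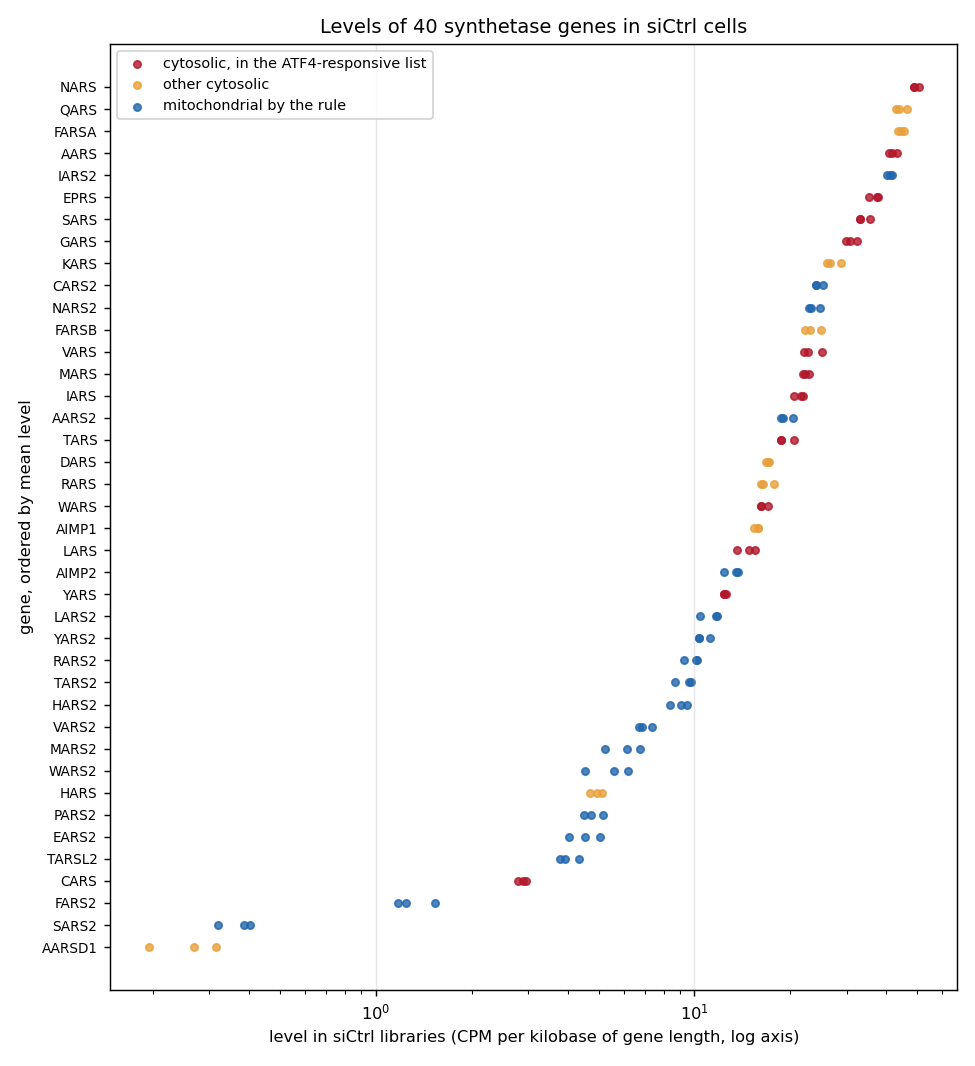
Level of 40 of the 41 genes in the 3 siCtrl libraries (points), in CPM per kilobase of gene length on a log axis, with genes ordered by mean level and coloured by group. Cytosolic genes hold most of the upper places, with IARS2 and CARS2 the highest mitochondrial genes, and CARS, SARS2 and AARSD1 are near the lower end.

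With siCDO1A, 4 of the 41 genes rose and 0 fell (edgeR quasi-likelihood test, Benjamini-Hochberg adjusted p of at most 0.05). Of the 4, 3 are mitochondrial enzymes, CARS2, MARS2 and SARS2, and the other is cytosolic VARS. The share called, 9.76%, was below the 14.8% of all genes tested that were called in this comparison, of which 7.37% were higher and 7.48% lower. The remaining 37 genes had log2 fold changes that did not pass the test.

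CARS2 charges mitochondrial tRNA with cysteine and lies on chromosome 13 from 110641412 to 110713603 on the minus strand (GRCh38, as all gene positions here). Its level was 252, 264 and 252 CPM in siCtrl and 336, 333 and 325 CPM with siCDO1A. The groups did not overlap, and the log2 fold change was 0.37 (SE 0.0507, adjusted p = 3.17e-05 by edgeR), a rise of 29.6%. The share of all genes whose siCDO1A libraries all lay above the siCtrl libraries was 15.2%.

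VARS, the cytosolic valyl enzyme on chromosome 6 from 31777518 to 31795953 on the minus strand, was at 134, 138 and 153 CPM in siCtrl and at 208, 197 and 179 CPM with siCDO1A. All siCDO1A libraries were above all siCtrl libraries, with a log2 fold change of 0.46 (SE 0.065, adjusted p = 5.49e-05 by edgeR). VARS is known to associate with the elongation factor complex eEF1, and EEF1D, a subunit of that complex, also rose with siCDO1A, by 0.27 on the log2 scale (SE 0.0591, adjusted p = 0.00374 by edgeR). EEF1A1, EEF1A2 and EEF1B2 did not pass with siCDO1A (adjusted p = 0.319, 0.0884 and 0.228 by edgeR). With siCDO1C, EEF1D was at 0.12 (adjusted p = 0.362 by edgeR).

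MARS2, the mitochondrial methionyl enzyme on chromosome 2 from 197705369 to 197708387 on the plus strand, was at 18.6, 20.3 and 15.8 CPM in siCtrl and at 26.2, 25.2 and 23.1 CPM with siCDO1A. The log2 fold change was 0.45 (SE 0.104, adjusted p = 0.00565 by edgeR), with no overlap between the groups. SARS2, on chromosome 19 from 38915266 to 38930896 on the minus strand, was at 1.25, 1.03 and 1.30 CPM in siCtrl and at 2.71, 3.22 and 2.31 CPM with siCDO1A. The log2 fold change of SARS2 was 1.18 (SE 0.278, adjusted p = 0.00617 by edgeR), the widest of the 41 and also the least precise of the 4 calls. A second protein-coding gene of the table, AC011455.2, overlaps SARS2 on the same strand and had 0 counts in every library, and how reads shared by these genes were assigned was not tested.

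With siCDO1C, 2 genes rose and 5 fell, all 5 from the ATF4-responsive list. As that list was written with earlier results of these data known, this is a description and not a test. CARS2 and VARS rose as with siCDO1A, and CARS, AARS, WARS, MARS and SARS fell. The share called among the 41 was 17.1%, against 4.77% of all genes tested, of which 2.27% were higher and 2.5% lower. Both comparisons used the same 3 siCtrl libraries, so their values are not independent of each other.

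CARS, the cytosolic cysteinyl enzyme on chromosome 11 from 3000922 to 3057613 on the minus strand, was at 28.1, 29.8 and 29.1 CPM in siCtrl and at 23.4, 21.0 and 20.1 CPM with siCDO1C. Every siCDO1C library was below every siCtrl library, as for 12% of all genes tested, and the log2 fold change was -0.44 (SE 0.0983, adjusted p = 0.0188 by edgeR). With siCDO1A, CARS was at 27.3, 32.2 and 24.1 CPM and overlapped siCtrl, with a log2 fold change of -0.06 (SE 0.0992, adjusted p = 0.754 by edgeR).

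AARS, the alanyl enzyme on chromosome 16 from 70252295 to 70289543 on the minus strand, was at 195, 188 and 183 CPM in siCtrl, at 199, 198 and 176 CPM with siCDO1A and at 154, 154 and 154 CPM with siCDO1C. The siCDO1C libraries lay below all others, and the log2 fold change against siCtrl was -0.30 (SE 0.0681, adjusted p = 0.0208 by edgeR). WARS, the tryptophanyl enzyme on chromosome 14 from 100333788 to 100376805 on the minus strand, was at 108, 103 and 103 CPM in siCtrl and at 84.3, 84.9 and 91.0 CPM with siCDO1C, a log2 fold change of -0.28 (SE 0.0734, adjusted p = 0.0414 by edgeR). The siCDO1A libraries of WARS, at 96.4, 94.7 and 102 CPM, lay between these groups.

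MARS, the methionyl enzyme of the multi-synthetase complex, on chromosome 12 from 57475445 to 57517569 on the plus strand, was at 154, 156 and 161 CPM in siCtrl and at 125, 137 and 133 CPM with siCDO1C. Its log2 fold change was -0.26 (SE 0.0696, adjusted p = 0.0427 by edgeR). MARS overlaps DDIT3 on the opposite strand, and the strand setting of the counting is not given in the sources used here. SARS, the seryl enzyme on chromosome 1 from 109213918 to 109238169 on the plus strand, was at 127, 127 and 136 CPM in siCtrl and at 107, 112 and 108 CPM with siCDO1C, a log2 fold change of -0.26 (SE 0.0703, adjusted p = 0.0481 by edgeR). Neither gene had overlapping groups.

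CARS2 was at 311, 352 and 332 CPM with siCDO1C, all above siCtrl as for 12.1% of all genes, with a log2 fold change of 0.37 (SE 0.0713, adjusted p = 0.00706 by edgeR). VARS, at 195, 177 and 174 CPM, also lay above siCtrl in every library (log2 fold change 0.35, SE 0.0777, adjusted p = 0.0174 by edgeR). VARS was the exception within the ATF4-responsive list, where the other 12 genes had negative log2 fold changes. MARS2 at 23.3, 24.7 and 22.3 CPM (log2 fold change 0.36, SE 0.113, adjusted p = 0.0857) and SARS2 at 2.74, 1.98 and 1.24 CPM (0.73, SE 0.341, adjusted p = 0.265) did not pass the edgeR test with siCDO1C, and SARS2 overlapped siCtrl.

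Per the labels, libraries with the same replicate number share a batch number. The data did not show this pairing between siRNA and siCtrl libraries, as given under the processing. With the replicate number as a block, 3 of the 7 calls with siCDO1C stood, CARS2, VARS and CARS, and the adjusted p by edgeR became 0.0525 for AARS, 0.0862 for WARS, 0.094 for MARS and 0.109 for SARS. Most of the 7 calls were also lost when any library but siCDO1C replicate 2 was left out. Without siCtrl replicate 1, 2 or 3, the number of synthetase genes called was 0, 1 and 1. Without siCDO1C replicate 1, 2 or 3 it was 2, 10 and 2, the 10 being the 7 genes with GARS, TARS and YARS, all 3 lower. CARS2 and CARS were the 2 called without siCDO1C replicate 1, CARS2 and VARS without siCDO1C replicate 3, CARS2 without siCtrl replicate 2 and VARS without siCtrl replicate 3. With siCDO1A, the 4 calls held with the block and with each library left out in turn. Leaving out siCDO1A replicate 3 gave 7 calls, the added ones being FARSA and HARS, higher, and TARS, lower. Calls over all genes also moved widely in the same fits, as given in the last section. These shifts need not be particular to the synthetases, and the same holds for the other lists below.

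**Figure D2:**
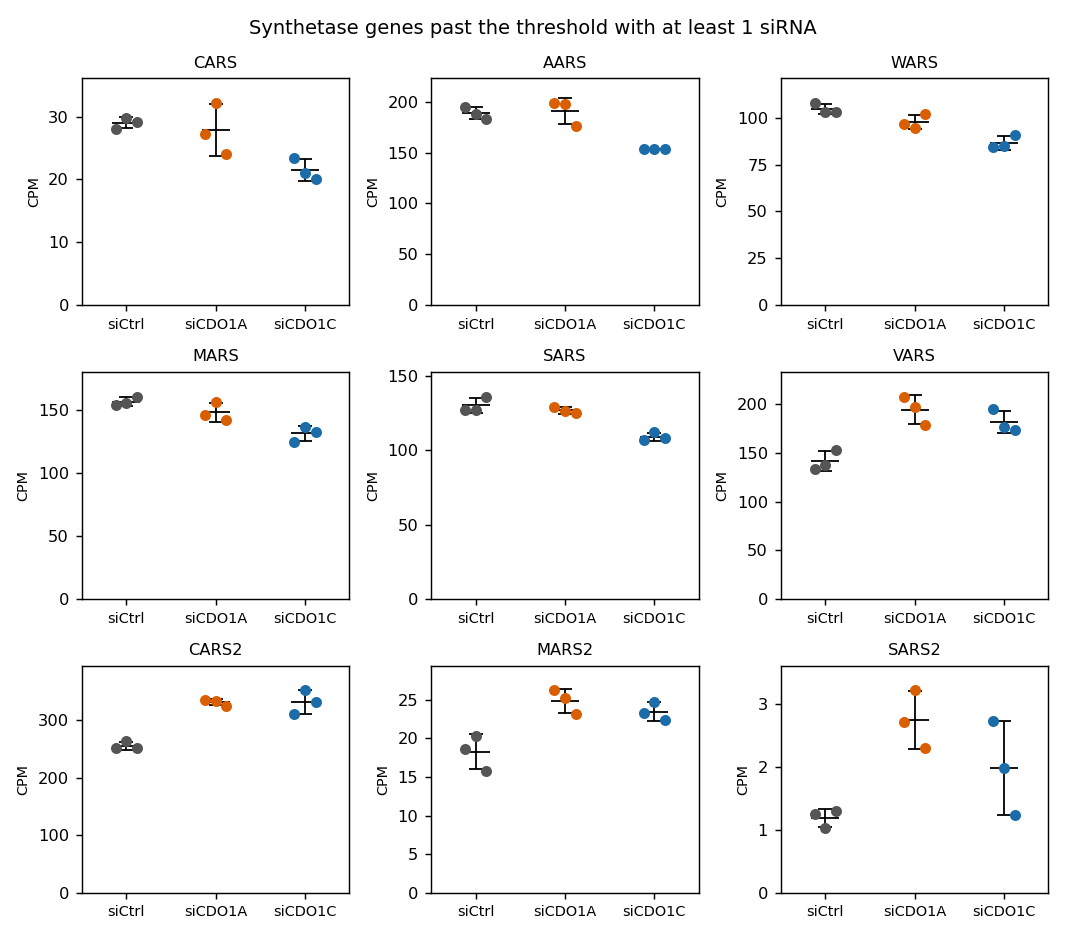
CPM of the 9 synthetase genes past the threshold with at least 1 siRNA, in each library (points), with the mean and SD of 3 libraries (black); every axis starts at 0. CARS, AARS, WARS, MARS and SARS are lowest with siCDO1C, and CARS2 and VARS are above siCtrl in all 6 siRNA libraries.

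For the cysteinyl pair, the ratio of CARS to CARS2 per kilobase was 0.116, 0.118 and 0.12 in siCtrl, 0.0847, 0.101 and 0.0773 with siCDO1A and 0.0784, 0.0622 and 0.0631 with siCDO1C. All 6 siRNA libraries lay below siCtrl. A two-sided exact permutation test gave p = 0.1 with either siRNA, which is the lowest value possible for 3 libraries against 3. Over the 14 pairs, the log2 fold change of the cytosolic gene was below that of its mitochondrial counterpart in 10 with siCDO1A (median difference -0.13) and in 12 with siCDO1C (median difference -0.17). Among the 14 pairs, the exceptions with siCDO1C were VARS against VARS2 (0.27) and HARS against HARS2 (0.01). Outside the pairs, FARSA and FARSB were at 0.07 and 0.10 with siCDO1C, above FARS2 at -0.28. EPRS was at -0.085, between EARS2 at -0.13 and PARS2 at 0.01, and none of these genes was called. HARS and HARS2 lie head to head on opposite strands and overlap.

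For the 13 ATF4-responsive synthetases the median log2 fold change was -0.26 after siCDO1C, with 1 gene called higher and 5 called lower of 13, where 2.27% and 2.5% of all genes were called. In 9 of the 13 every siCDO1C library was below every siCtrl library, against 12% of all genes. The median over all genes tested was -0.000233 on the same scale. The 5 called genes are those named above, and among the rest GARS (-0.26, adjusted p = 0.0699), YARS (-0.27, adjusted p = 0.057) and TARS (-0.24, adjusted p = 0.0735) did not pass the edgeR test. NARS, which has the element in its promoter, was at -0.06 (adjusted p = 0.724 by edgeR), and EPRS, IARS and LARS were between -0.09 and -0.07. Of the 5 called genes, CARS, AARS and MARS had the element, and SARS and WARS had a matched promoter without it. GARS, TARS, IARS and NARS had the element and were not called.

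With siCDO1A the same list had a median of -0.04, with VARS called higher and no gene called lower. Per library, the median over the 13 genes relative to the siCtrl mean was -0.07, -0.04 and -0.05 (log2) for siCDO1A and -0.28, -0.15 and -0.24 for siCDO1C. The siCtrl libraries lay between -0.02 and 0.03. Replicate 2 of siCDO1C was thus the nearest to siCtrl of its group.

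The other 7 cytosolic enzymes (DARS, FARSA, FARSB, HARS, KARS, QARS and RARS) had median log2 fold changes of 0.01 (siCDO1A) and 0.02 (siCDO1C). None was called by edgeR with every library kept or by DESeq2. Without siCDO1A replicate 3, edgeR called FARSA and HARS higher with siCDO1A. At an unadjusted p under 0.05, 2 were higher with siCDO1A and 1 with siCDO1C by edgeR, where 27.9% and 18.6% of all genes passed that level in either direction. HARS, the histidyl enzyme, was the nearest to the threshold, at 0.22 with siCDO1A (adjusted p = 0.0666 by edgeR) and 0.25 with siCDO1C (adjusted p = 0.124 by edgeR), with every siRNA library of both groups above siCtrl. AARSD1 was at 1.17, 0.717 and 0.994 CPM in siCtrl, at 1.31, 1.71 and 2.18 CPM with siCDO1A and at 2.06, 1.52 and 1.73 CPM with siCDO1C, with adjusted p of 0.0955 and 0.163 by edgeR. The gene PTGES3L-AARSD1, which spans AARSD1 on the same strand, had 0 counts in every library.

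The 19 genes classed as mitochondrial had medians of 0.06 (siCDO1A) and 0.04 (siCDO1C) on the log2 scale. Beyond CARS2, MARS2 and SARS2 with siCDO1A, and CARS2 with siCDO1C, none of the 19 was called, and no gene of the 19 was called lower. These 3 and 1 of 19 are near the shares of all genes called, 14.8% and 4.77%. Log2 fold changes were positive for 15 of the 19 after siCDO1A and for 12 after siCDO1C. The median of the 22 cytosolic genes minus that of the 19 was -0.09 with siCDO1A and -0.14 with siCDO1C.

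The multi-synthetase complex, listed with 11 genes, had MARS as its 1 called gene, lower with siCDO1C. Its scaffold genes did not pass the test. AIMP1 was at 52.8, 51.2 and 52.5 CPM in siCtrl, at 47.2, 50.8 and 52.7 CPM with siCDO1A and at 51.5, 55.1 and 47.4 CPM with siCDO1C. AIMP2 was at 25.2, 24.8 and 22.8 CPM, at 22.4, 25.9 and 19.4 CPM and at 24.8, 25.7 and 22.4 CPM in the same order, so that its groups overlapped throughout. EEF1E1, whose description does not hold the words used to choose the 41, was at 2.42, 2.95 and 3.04 CPM in siCtrl, at 4.27, 3.01 and 3.37 CPM with siCDO1A and at 3.77, 5.48 and 3.88 CPM with siCDO1C (log2 fold changes 0.33 and 0.63, adjusted p = 0.363 and 0.131 by edgeR). By catalytic fold, 3 of 19 class I enzymes and 1 of 19 class II enzymes were called higher with siCDO1A, and with siCDO1C 2 class I enzymes were called higher and 3 lower, against 2 lower in class II. The shares of all genes called were 14.8% with siCDO1A and 4.77% with siCDO1C.

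**Figure D3:**
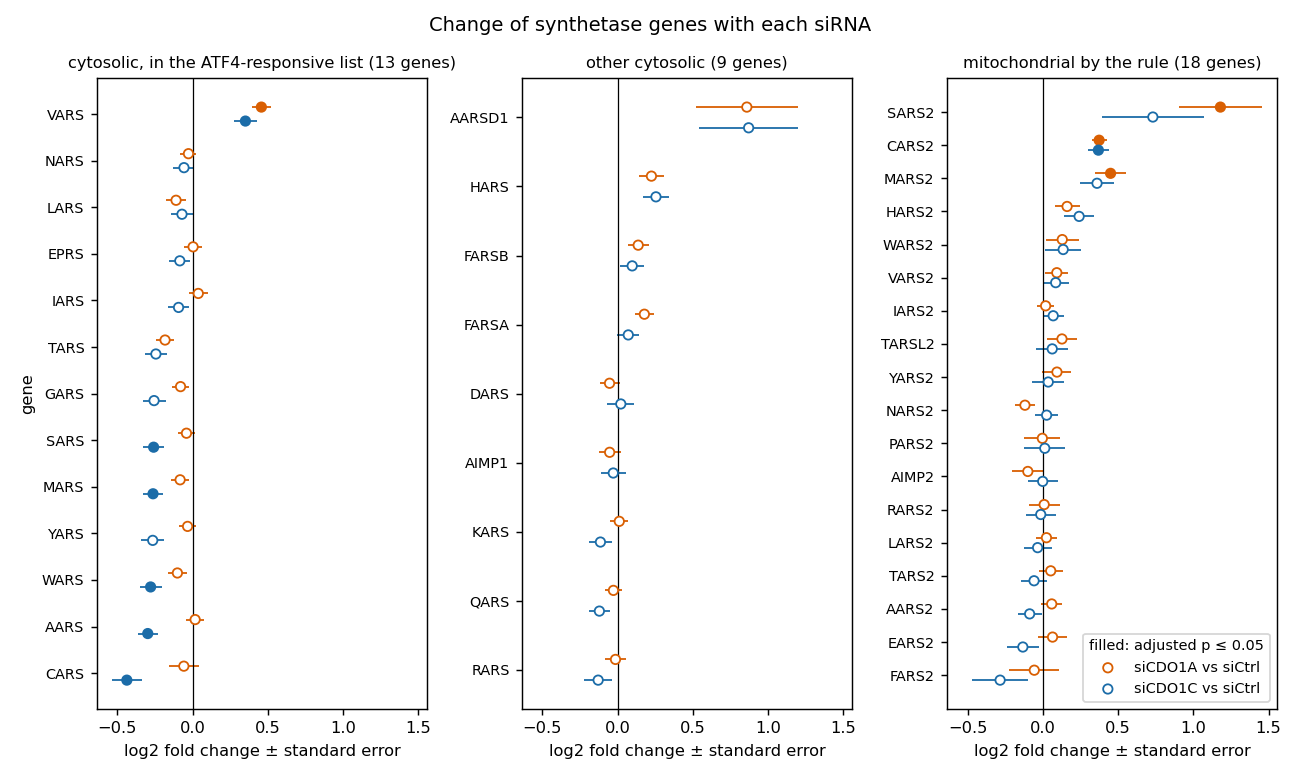
Log2 fold change with its standard error of 40 of the 41 genes for siCDO1A (orange) and siCDO1C (blue) against the shared siCtrl libraries, in 3 groups; filled points have an adjusted p of at most 0.05. In the ATF4-responsive group 12 of 13 blue points are below 0, with VARS above, and the filled points of the mitochondrial group are CARS2, MARS2 and SARS2.

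The siRNAs were also compared directly. Against siCDO1A, 0 of the 41 genes were called with siCDO1C by edgeR and 0 by DESeq2, where 0.444% of all genes were called by edgeR. At an unadjusted p under 0.05, 6 of the 41 were lower and 0 higher, and 7.65% of all genes passed that level in either direction. AARS had a log2 fold change of -0.31 (SE 0.0802, adjusted p = 0.139 by edgeR) and CARS of -0.38 (SE 0.12, adjusted p = 0.299 by edgeR). A fit of all 9 libraries together called AARS, and leaving out siCDO1C replicate 2 called AARS and YARS. The median of the ATF4-responsive list was -0.17 in this comparison, and 8 of its 13 genes had every siCDO1C library below every siCDO1A library, as had 6.37% of all genes.

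Other ATF4 targets were followed in a list of their own, also written with earlier results of these data known. Of 35 such genes, all tested, 10 fell and 0 rose with siCDO1C, with a median log2 fold change of -0.24 and 32 of 35 below 0. With siCDO1A, 6 fell and 1, CEBPB, rose, and the median was -0.06. Of all genes, 2.5% were called lower with siCDO1C, and 7.48% lower and 7.37% higher with siCDO1A. With the replicate number as a block, 8 were called lower with siCDO1C and 2 with siCDO1A, and CEBPB was not called (adjusted p = 0.0744 by edgeR). The number called lower with siCDO1C was 17 without siCDO1C replicate 2 and between 3 and 5 with another library left out, namely 3, 4 and 3 without siCtrl replicates 1, 2 and 3 and 4 and 5 without siCDO1C replicates 1 and 3. With siCDO1A it was 6 without siCDO1A replicate 3 and 3 when any other library was left out.

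SLC7A11, the cystine importer, was at 43.6, 43.0 and 38.4 CPM in siCtrl, at 24.2, 23.3 and 28.0 CPM with siCDO1A and at 14.8, 12.3 and 16.3 CPM with siCDO1C. The 3 groups did not overlap, and its log2 fold change was -0.72 with siCDO1A (adjusted p = 1.48e-05 by edgeR) and -1.53 with siCDO1C (adjusted p = 2.84e-06 by edgeR). SLC1A4, a neutral amino acid transporter, fell by 0.57 on the log2 scale with siCDO1C (adjusted p = 0.000925 by edgeR), and NUPR1, a stress-induced chromatin protein, fell by 0.39 (adjusted p = 0.0141 by edgeR). DDIT3, which encodes the stress factor CHOP, was at a mean of 22.3 CPM in siCtrl, with every library above the 10.3, 15.1 and 11.1 CPM with siCDO1C (log2 fold change -0.88, adjusted p = 0.00203 by edgeR). With siCDO1A, PPP1R15A, a phosphatase subunit that reverses eIF2 phosphorylation, fell by 0.45 (adjusted p = 0.00964 by edgeR), and the amino acid transporters SLC38A2 and SLC7A1 fell by 0.23 and 0.17 (adjusted p = 0.0129 and 0.0308 by edgeR). With the block, the adjusted p was 0.066 for SLC38A2 and 0.144 for SLC7A1. The NUPR1 call with siCDO1C held in 1 of the 6 fits that left out a library. Those of SLC7A11, SLC1A4 and DDIT3 with siCDO1C held in all 6.

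**Figure D4:**
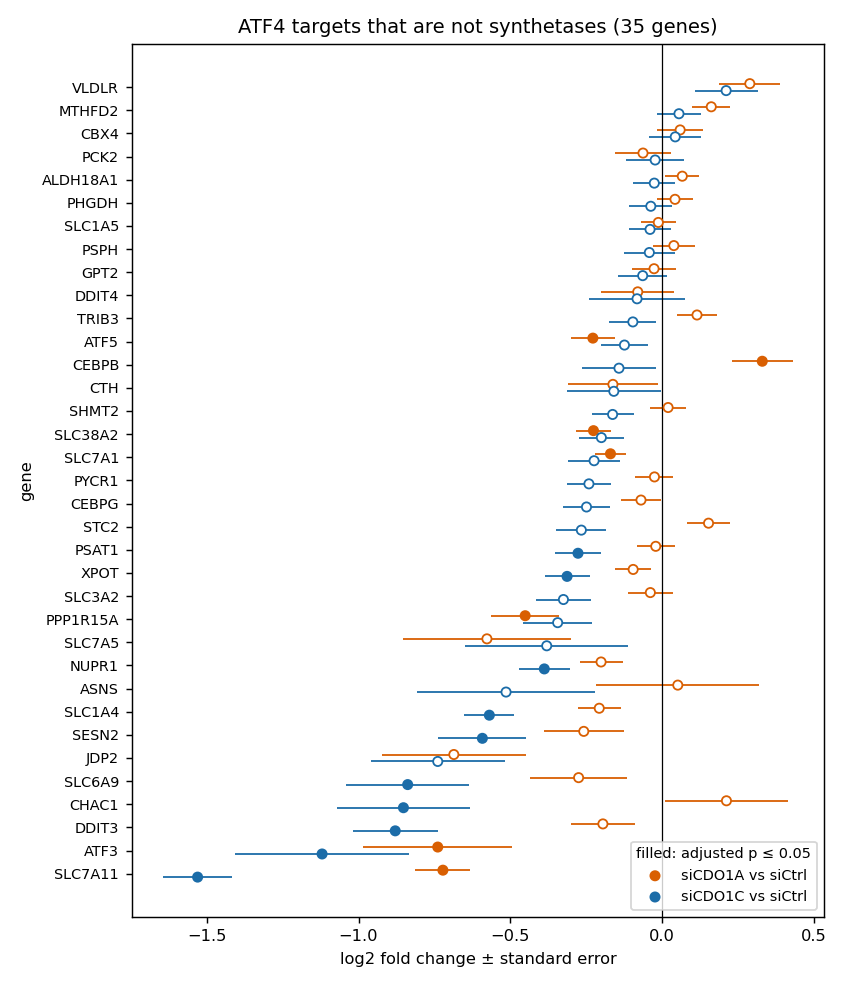
Log2 fold change with its standard error of 35 ATF4 targets that are not synthetases, for siCDO1A (orange) and siCDO1C (blue) against siCtrl; filled points have an adjusted p of at most 0.05. The 10 filled blue points are all below 0, from PSAT1 to SLC7A11, and 32 of the 35 blue points are below 0.

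ATF4 itself fell with both siRNAs. It was at 379, 407 and 430 CPM in siCtrl, at 364, 363 and 346 CPM with siCDO1A and at 289, 347 and 305 CPM with siCDO1C, with log2 fold changes of -0.18 (adjusted p = 0.0275 by edgeR) and -0.38 (adjusted p = 0.0136 by edgeR). With the block the adjusted p was 0.122 and 0.0113, and the call held in 2 and 3 of the 6 fits that left out a library. EIF2AK4, the kinase that senses uncharged tRNA, was at -0.05 and -0.12 (adjusted p = 0.615 and 0.538 by edgeR). Of the 15 genes of the eIF2 kinases, eIF2, eIF2B and ATF4, 2 rose and 3 fell with siCDO1A and 2 fell with siCDO1C, where 14.8% and 4.77% of all genes were called. EIF2AK3, the kinase PERK of the endoplasmic reticulum, fell with both (-0.31 and -0.39, adjusted p = 0.0148 and 0.0182 by edgeR). Its calls held in 3 and 2 of the 6 fits that left out a library, and with the block (adjusted p = 0.0497 and 0.0301 by edgeR). EIF2S1, the eIF2 subunit that these kinases phosphorylate, fell by 0.28 with siCDO1A (adjusted p = 0.00317 by edgeR), and EIF2S3, another subunit, rose by 0.24 (adjusted p = 0.00496 by edgeR). With the block 1 gene was called higher and 2 lower with siCDO1A. Leaving out siCtrl replicate 2, siCDO1A replicate 1 or siCDO1A replicate 2 gave 1 higher and 1 lower with siCDO1A, siCtrl replicate 1 gave 1 and 3, siCtrl replicate 3 gave 1 and 2, and siCDO1A replicate 3 gave 2 and 5. For siCDO1C the count of this list fell from 2 to 0 without siCtrl replicate 2, siCtrl replicate 3 or siCDO1C replicate 1, was 1 without siCtrl replicate 1, and became 2 higher and 4 lower without siCDO1C replicate 2.

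Partners of the synthetases were followed on each side. Of 11 tested cytosolic partners, XPOT, the nuclear exporter of tRNA and itself an ATF4 target, fell by 0.31 with siCDO1C (adjusted p = 0.025 by edgeR) and was at -0.10 with siCDO1A (adjusted p = 0.319 by edgeR). With siCDO1A, EEF1D rose, as given above, and SEPSECS, which makes selenocysteinyl-tRNA, fell by 0.46 (adjusted p = 0.0196 by edgeR). The XPOT and SEPSECS calls held in 2 and 3 of the 6 fits that left out a library. Of 23 mitochondrial translation partners, 5 rose and 1 fell with siCDO1A and 1 rose with siCDO1C, where 14.8% and 4.77% of all genes were called, so that the count with siCDO1C is at the general share. PUS1, a pseudouridine synthase of tRNA, rose with siCDO1A by 0.46 (adjusted p = 0.00115 by edgeR) and with siCDO1C by 0.35 (adjusted p = 0.0496 by edgeR). LRPPRC, a stabiliser of mitochondrial mRNA, rose by 0.21 with siCDO1A (adjusted p = 0.00764 by edgeR), TUFM, the mitochondrial elongation factor, rose by 0.22 (adjusted p = 0.0222 by edgeR), and MTIF2, the mitochondrial initiation factor, fell by 0.28 (adjusted p = 0.0241 by edgeR). With the replicate number as a block, 1 of the 23 was called higher and 0 lower with siCDO1A, where MTIF2 had an adjusted p of 0.0836, and 0 with siCDO1C, where PUS1 had an adjusted p of 0.0716. The count of 5 with siCDO1A was 2 without siCtrl replicate 1 or 2 or siCDO1A replicate 1 or 2, and the 1 with siCDO1C was 0 when any library other than siCDO1C replicate 2 was left out.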

How the data were processed

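RNA of VCaP cells transfected with siCtrl, siCDO1A or siCDO1C was measured by RNA-seq, with 3 libraries per group. Per the study's methods and the submitters' processing notes, poly(A) RNA was made into directional libraries, and reads were aligned with HISAT2 2.0.5 (build hg38) with featureCounts used to count them. The deposited values are raw counts per gene, not normalized by the authors. Strand and multiple-mapping settings are not given in the sources used here, and 18 pseudogenes of synthetases are listed, of which 6 had any count. In the count table, 3 columns match no sample and were not used.

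Genes were kept with filterByExpr (minimum count 10, 9 libraries), normalized with TMM and tested in the 6 libraries of each comparison with edgeR 4.0.16 (quasi-likelihood, robust) in R 4.3.3, with Benjamini-Hochberg adjustment over all 15555 genes. Fold changes are log2, and the SE is the fold change divided by the square root of F. The siRNA groups share siCtrl. Alternatives were RLE factors, DESeq2 1.42.0, a fit of 9 libraries, no filter, at least 10 counts in every library, the replicate block and leaving out each library. Deviations from group means over 11337 genes, correlated between same-numbered libraries, gave -0.198, -0.0884 and -0.37 for siCDO1A and siCtrl, 0.0513, -0.00845 and -0.272 for siCDO1C and siCtrl, and -0.131, 0.124 and 0.372 for siCDO1C and siCDO1A. The pairing comes from the batch label. Against siCtrl these correlations were at most 0.0513, so they did not show the pairing.

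The members and all gene lists, written from general knowledge, were chosen with earlier results of these data known. Named genes are the members called in any comparison, CARS and CARS2, the 3 highest and 3 lowest levels, the scaffold genes, and up to 4 called genes of each other list with the smallest adjusted p, with ATF4, EIF2AK4 and XPOT. Other members are named where they bear on a group. The tests were checked on simulated data. Of the members, 1 is counted with its group but is not reported here by itself.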

Additional observations from a re-analysis of the deposited data

Results flagged for a closer look

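In the direct comparison of siCDO1C with siCDO1A, 3 genes of the ATF4 target list differed between the siRNAs by edgeR. SLC7A11 was lower with siCDO1C by -0.81 on the log2 scale (adjusted p = 0.0043), DDIT3 by -0.68 (adjusted p = 0.0496) and STC2, a secreted stress-response glycoprotein, by -0.42 (adjusted p = 0.0496). STC2 was at 55.8, 59.7 and 56.1 CPM with siCDO1A and at 42.2, 41.3 and 45.5 CPM with siCDO1C, with siCtrl between them at 52.8, 49.5 and 52.0 CPM. The DDIT3 and STC2 calls each held in 1 of the 6 fits that left out a library, and that of SLC7A11 in 5, with adjusted p of up to 0.396, 0.41 and 0.0877 over all alternatives. With the replicate number as a block all 3 were called. None of the 41 synthetase genes differed between the siRNAs in this way by edgeR.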

How the results depend on the processing

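With siCDO1A against siCtrl, the number of genes changed, 2309, was 1369 in a fit of all 9 libraries, 1358 with the replicate block and 1292 to 3454 without single libraries, and synthetase genes changed numbered 4 to 7 without single libraries. With siCDO1C, genes changed numbered 263 to 2068 without single libraries, and synthetase genes changed were 3 with the replicate block and 0 to 10 without single libraries, against 7. The cytosolic minus mitochondrial median log2 fold change, -0.14 with siCDO1C, was -0.125 with AIMP2 and TARSL2 counted as cytosolic and -0.16 to -0.132 without single libraries. For siCDO1C against siCDO1A, genes changed numbered 69, with 104 by DESeq2, 128 in a fit of all 9 libraries, 147 without a filter, 121 with the replicate block and 18 to 447 without single libraries, and synthetase genes changed were 1 in the fit of all 9 libraries and 0 to 2 without single libraries. The median of the ATF4-responsive list, an alternative set added after seeing the data, stayed within the spread between libraries in each comparison under every alternative run. Of 1466 values of the 41 synthetase genes under these alternatives, 36 lost the call, 14 gained one and 0 changed direction while called. Of 36 calls of other genes in the lists, 21 held with the replicate block and 9 under every alternative. AARSD1 had no value with at least 10 counts in every library, and SARS2 no adjusted p by DESeq2. The cause of these shifts was not tested. Beyond the calls named in the report, the block ended no call of a synthetase gene. SARS2 and AARSD1, at about 1 CPM in siCtrl, are limited by few counts. Whether depth or the genes that overlap them on the same strand account for this was not tested.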
